A study of Rattus norvegicus with 3 samples.

Results

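Genes that serve fatty acid and ketone body use were followed in the soleus, a slow postural muscle of the hind limb, of irradiated rats. The group holds 33 genes chosen by name for their roles in lipid uptake, storage in droplets, import into mitochondria, beta-oxidation and ketone body use. They were chosen with earlier results of these data known. All 33 had a probe set annotated with their symbol alone, among 14506 genes measured in this way. Each gene was read from its brightest probe set, and 32 of the 33 had a mean over the 3 arrays at or above 5.72 (log2), the 30th percentile of all genes, which set the 10154 genes compared. Oxct1 read 5.11 on every array and stayed below that limit. Angptl4 passed although its value in irradiation alone was below the limit, so its count as a differing gene was in part fixed by the filter.

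Rats of a strain labelled Brown, aged 7 weeks, all received continuous irradiation over 2 weeks to an absorbed dose of 50 mSv. Group Ct had irradiation alone, group DN had denervation with the same irradiation, and group TS had tail suspension, which takes the load off the hind limbs, with the same irradiation. Each group is a single Affymetrix Rat Gene 1.0 ST array hybridized with pooled RNA from 6 rats. Differences between arrays are therefore given without error or test and describe pools, not animals. Unirradiated muscle is not analysed here, and both comparisons with Ct use the same Ct array. How long the denervation or suspension lasted is not given in the labels.

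Fatty acids reach muscle from circulating triglyceride, cross the membrane with the help of carriers, are activated to acyl-CoA, and either enter lipid droplets or are carried into mitochondria as carnitine esters. Beta-oxidation then shortens the chain in repeated rounds of dehydrogenation, hydration, dehydrogenation and thiolysis, passing electrons to the respiratory chain partly through the electron transfer flavoprotein. Ketone bodies made by the liver are oxidized by a short mitochondrial route that ends in acetyl-CoA. Slow muscle such as the soleus relies heavily on fatty acids.

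Most of these genes were lower in denervated and in suspended soleus than in irradiation alone. In DN, 24 of the 33 were at least 1.5-fold lower than in Ct and 3 were at least 1.5-fold higher, where 5.53% and 4.93% of the genes compared passed these limits. In TS, 23 of the 33 were lower and 2 were higher, against 2.68% and 5.89% of the genes compared. The median difference of the 33 from Ct was -0.85 (log2) in DN and -0.80 in TS. Over the 32 past the filter it was -0.90 and -0.81, with the same counts as for the 33. Over the 10154 genes, all past the filter, it was 0.00 and 0.02. This background holds many ties, which cannot pass a limit. Of the genes compared, 42.9% read exactly equal on DN and Ct and 24.7% on TS and Ct, against 3 and 1 of the 33. With the filter at the 50th percentile, 6.95% of genes were lower in DN and 3.27% in TS. The mean level of the 33 in Ct was 10.76. The median level over the genes compared stood at 8.12 for the Ct array, 8.13 for DN and 8.25 for TS. When each array was centred on that median, the median difference of all genes in TS minus Ct was -0.12 in place of 0.02, and 25 members were lower and 2 higher in TS, beside 3.94% and 3.52% of the genes compared. Among all genes past the limit in TS, 68.7% were higher without that centring and 47.2% with it.

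**Figure D1:**
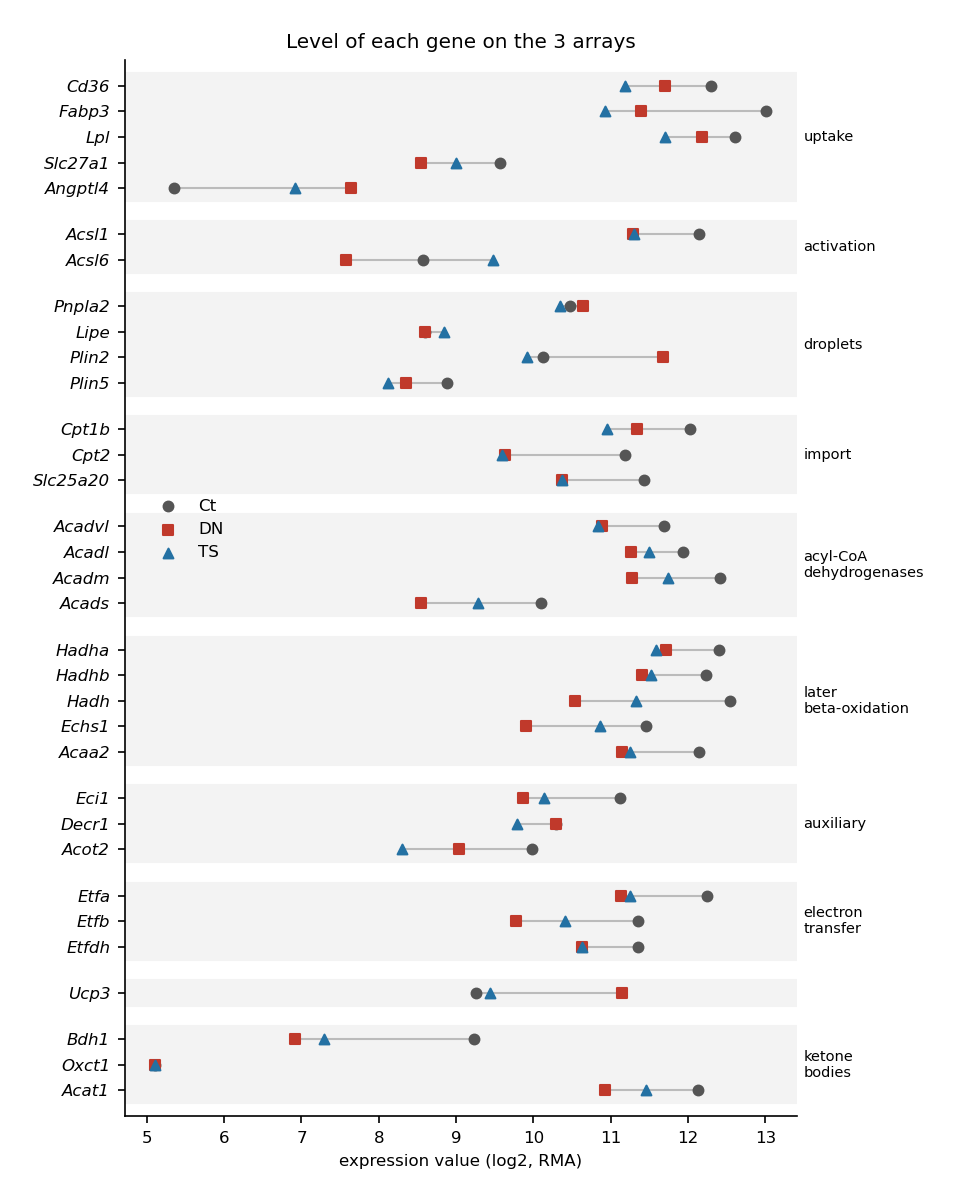
Expression values (log2, RMA) of the 33 genes on the Ct array (circles), the DN array (squares) and the TS array (triangles), grouped by step, with 1 point per array and no error bar because each group is 1 pool. Ct lies to the right of DN and TS in most rows, and Angptl4, Plin2 and Ucp3 are the rows in which DN lies well to the right of Ct; positions of different genes are not comparable in level.

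The 15 genes of mitochondrial import, beta-oxidation and electron transfer lay on 1 side of Ct. All 15 were at least 1.5-fold lower in DN, with a median of -1.05, and 14 of 15 were in TS, with a median of -0.86. Among the other 18 members, 9 were lower and 3 higher in DN, and 9 were lower and 2 higher in TS. The shares of all genes compared were 5.53% lower and 4.93% higher in DN, and 2.68% and 5.89% in TS. The 15 leave out the auxiliary enzymes, among them Decr1, equal to Ct in DN and at -0.50 in TS. Members and steps were listed with earlier results of these data known. The higher genes, Angptl4, Acsl6, Plin2 and Ucp3, lay outside the 15, in uptake, activation, droplets and uncoupling. That split was not complete among 28 further fatty acid oxidation genes, described below. Of these, 8 were lower and 1 higher (Acot9, 1.13) in DN, and 4 were lower and 1 higher (Ehhadh, 0.70) in TS.

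**Figure D2:**
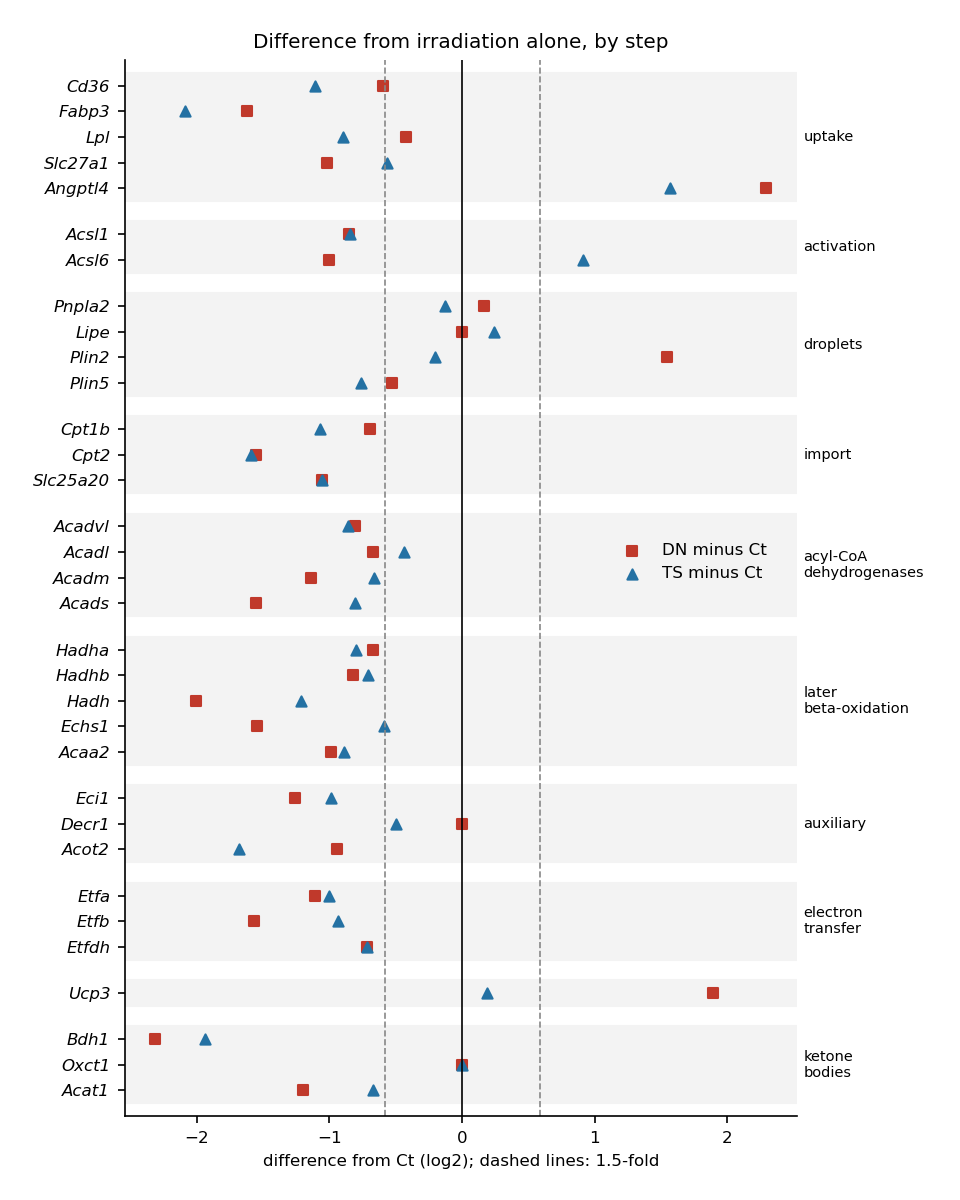
Differences from Ct (log2) for DN (squares) and TS (triangles), in the same order of steps, with dashed lines at 1.5-fold in either direction. The import, beta-oxidation and electron transfer rows lie left of 0 in both comparisons, whereas Acsl6 lies left of 0 in DN and at 0.91 in TS, and Ucp3 at 1.89 and 0.18.

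Promoter sequences of RefSeq, on assembly GRCr8, were matched to 27 of the 33 genes by symbol. Shown here, 5′ to 3′ on the strand of the gene, are the 250 bases before the start of the genes with the largest differences past the limit: Angptl4 (chr7:15258682-15258931, minus strand), with the highest differences from Ct in both comparisons, Bdh1 (chr11:82842637-82842886, minus strand), the lowest in DN, and Fabp3 (chr5:147935875-147936124, plus strand), the lowest in TS. The last sequence is the whole stretch of 300 bases between the starts of Hadhb and Hadha (chr6:31907501-31907800, printed on the plus strand), shown because these genes lie head to head and encode the partner subunits of a single enzyme, a choice made with their values known. The rank of Angptl4 in DN rests on its dim Ct value, since with 32 added on the linear scale its difference was 1.67 and that of Ucp3 1.84. Capitals mark GGGCGG or its reverse complement, the core of a GC box.
Angptl4: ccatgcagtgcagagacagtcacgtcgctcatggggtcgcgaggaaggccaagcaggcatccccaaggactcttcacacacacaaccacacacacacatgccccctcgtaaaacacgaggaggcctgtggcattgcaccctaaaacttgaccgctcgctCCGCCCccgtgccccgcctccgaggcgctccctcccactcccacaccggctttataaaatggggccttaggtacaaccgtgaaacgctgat
Bdh1: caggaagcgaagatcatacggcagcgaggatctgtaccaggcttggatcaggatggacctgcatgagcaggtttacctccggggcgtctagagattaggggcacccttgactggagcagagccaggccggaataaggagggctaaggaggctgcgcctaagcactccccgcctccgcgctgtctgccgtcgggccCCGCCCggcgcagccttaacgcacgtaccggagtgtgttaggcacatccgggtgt
Fabp3: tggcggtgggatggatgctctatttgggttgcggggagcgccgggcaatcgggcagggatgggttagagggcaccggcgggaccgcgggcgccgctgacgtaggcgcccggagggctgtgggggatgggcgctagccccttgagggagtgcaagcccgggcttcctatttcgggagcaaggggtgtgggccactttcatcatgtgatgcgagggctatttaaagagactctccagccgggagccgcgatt
Hadhb to Hadha: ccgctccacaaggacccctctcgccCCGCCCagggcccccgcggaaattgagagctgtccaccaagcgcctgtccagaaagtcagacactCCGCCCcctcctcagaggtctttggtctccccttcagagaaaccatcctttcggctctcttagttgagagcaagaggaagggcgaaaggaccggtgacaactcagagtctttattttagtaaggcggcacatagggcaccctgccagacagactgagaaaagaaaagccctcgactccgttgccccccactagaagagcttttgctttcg

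Motifs were searched on both strands in the 250 bases before each start. GGGCGG was found in 18 of 28 member windows (Plin2 has 2 windows, and those of Hadha and Hadhb overlap), beside 30.5% of all 33469 windows. Member windows were richer in G and C, with a median of 59.8% against 51.2% for all windows, so the comparison of GGGCGG is also one of base composition. AAGGTCA, the core site that estrogen-related receptors bind, was found in 0 of 28 member windows and in 3.99% of all windows. Its longer form TCAAGGTCA was found in 0 of 28 and 0.388%, and CAAAGGTCA, which overlaps the same core, in 0 of 28 and 0.376%. These counts say only which letters stand in these short windows. Angptl4 holds 1 GGGCGG match, Bdh1 1, Fabp3 0 and the Hadhb to Hadha stretch 2.

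Uptake differed by gene, with 3 of its 5 genes below Ct past the limit and 1 above Ct in each group. The 3 were Fabp3, Cd36 and Slc27a1 in DN, and Fabp3, Cd36 and Lpl in TS. The shares of all genes compared were 5.53% lower and 4.93% higher in DN, and 2.68% and 5.89% in TS. Fabp3, the cytosolic fatty acid binding protein of heart and muscle, read 13.01 in Ct, 11.39 in DN and 10.92 in TS. Ct was thus the highest array, with differences of -1.62 (3.07-fold) in DN and -2.09 (4.26-fold) in TS. Only 0.069% of the genes compared had a lower TS minus Ct difference. Slc27a1, a fatty acid transport protein that also activates very long chains, read 9.57, 8.55 and 9.00 in Ct, DN and TS. It was 2.03-fold lower in DN and, at -0.56, just short of the limit in TS, a limit it passed under centring of the arrays (-0.70).

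Cd36, the membrane receptor that takes up long-chain fatty acids, read 12.29 in Ct, 11.70 in DN and 11.18 in TS. Its DN minus Ct difference of -0.59 lay just past the limit, and short of it (-0.58) after quantile normalization, while that of TS was -1.11. The order of DN and TS was not shared by a dimmer probe set of the same gene, which read 10.70, 9.68 and 9.68, so that both differences from Ct were -1.02 there. Lpl, the lipase that frees fatty acids from circulating triglyceride, read 12.60, 12.17 and 11.70, a difference of -0.43 in DN and -0.90 in TS. Angptl4, a secreted inhibitor of that lipase and a known target of fatty acid sensing receptors, was higher in both groups. It read 5.35 in Ct, 7.64 in DN and 6.92 in TS, or 4.90-fold and 2.97-fold above Ct. Because the Ct value is near the dim end of the array, the size of this difference is uncertain, and with 32 added on the linear scale it was 1.67 in DN and 1.07 in TS.

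Several of these genes are also used by cells other than muscle fibres, and in RNA of whole muscle fewer cells of a type and less RNA per cell cannot be told apart. Soleus fibre markers were bright on all arrays, with Ckm, the muscle creatine kinase, at 13.36, 12.24 and 13.30, Acta1, skeletal actin, at 13.99, 13.90 and 13.99, and Mb, myoglobin, at 13.36, 13.45 and 13.03 in Ct, DN and TS. Acta1 on Ct and TS stood at the highest value deposited for any probe set, and that tie gives no measure of a difference. The mean of 11 fibre markers was 13.16 in Ct, 12.81 in DN and 13.06 in TS, and 2 of them were at least 1.5-fold lower in DN and 0 in TS. Of all genes compared, 5.53% were lower past that limit in DN and 2.68% in TS.

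Some adipocyte markers were higher in both groups than in Ct. The mean of the 11 measured was 7.84 in Ct, 8.60 in DN and 8.51 in TS, with 4 at least 1.5-fold higher in DN, 5 in TS and 0 lower in either. Of all genes compared, 4.93% were higher past that limit in DN and 5.89% in TS. Adipoq, an adipocyte hormone, read 7.82, 9.92 and 9.45, Plin1, the droplet coat of adipocytes, 6.78, 7.26 and 7.30, and Cidec, which enlarges their droplets, 6.63, 7.95 and 7.79. Fabp4, the fatty acid binding protein of adipocytes, was not higher, at 11.38, 11.36 and 10.95, and is named here after its values were seen. Lipe stands both among these markers and among the members.

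Endothelial markers were slightly lower in DN, with a mean over 11 of 9.57 in Ct, 9.21 in DN and 9.41 in TS, and 2 of them at least 1.5-fold lower in DN and 1 in TS. Of all genes compared, 5.53% were lower past that limit in DN and 2.68% in TS. Pecam1 read 10.62, 10.30 and 10.59, Cdh5 8.52, 8.29 and 8.22, and Kdr, the main receptor of vascular growth factor, 10.20, 9.33 and 9.46. Macrophage markers, 11 past the limit, had means of 8.97, 9.12 and 9.52, with 0 past 1.5-fold in DN and 4 higher in TS. In TS, 5.89% of all genes compared were at least 1.5-fold higher. Cd68 read 8.23, 8.36 and 8.80, Cd163 8.55, 8.86 and 9.72, and Mrc1 9.53, 9.98 and 10.48. No marker read 0, and of those measured only the macrophage receptor Marco (5.65 on every array) lay below the filter limit. When Cd36, Lpl, Lipe, Plin2, Angptl4 and Pnpla2, which these cells also use strongly, were left out, 23 of 26 members past the filter were lower in DN and 21 of 26 in TS, with medians of -1.01 and -0.83. The part of these cells in the single differences of the 6 genes was not tested.

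Acyl-CoA synthetases differed between family members. Acsl1, the main synthetase of muscle and fat, read 12.14 in Ct, 11.29 in DN and 11.29 in TS, so that DN and TS lay together below Ct, at -0.85 in each. Acsl6, a synthetase of the same family, read 8.58 in Ct, 7.57 in DN and 9.48 in TS. It was 2.01-fold lower in DN and 1.88-fold higher in TS, and was the only member past the limit in opposite directions in these comparisons. Outside the 33, Acsl4, which prefers arachidonate, read 7.85, 10.06 and 8.79, and Acsl3, found on nascent droplets, read 9.52, 11.21 and 9.85. Both were higher in DN, by 2.21 and 1.68, while in TS Acsl4 was higher by 0.95 and Acsl3 by 0.33.

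Lipid droplet genes did not move together. Plin2, a coat protein found on droplets of most cells and stabilized by stored lipid, read 10.13 in Ct, 11.67 in DN and 9.92 in TS. It was thus 2.92-fold above Ct in DN and slightly below Ct in TS (-0.21). Plin5, the perilipin of oxidative muscle that ties droplets to mitochondria, read 8.88, 8.35 and 8.11, giving -0.53 in DN, short of the limit, and -0.76 in TS. Pnpla2, the first lipase of droplet breakdown, read 10.47, 10.64 and 10.34, and Lipe, the hormone-sensitive lipase, read 8.60, 8.60 and 8.84. Neither lipase passed 1.5-fold in either group. G0s2, a protein inhibitor of Pnpla2 that is not among the 33, read 8.19, 7.03 and 7.29, or -1.16 in DN and -0.90 in TS. Over 19 further genes of lipid uptake and droplets, which include the adipocyte markers Plin1 and Cidec, 3 were lower and 3 higher in DN, and 2 were lower and 4 higher in TS, with medians of 0.00 and 0.05. The shares of all genes compared were 5.53% lower and 4.93% higher in DN, and 2.68% and 5.89% in TS.

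The carnitine shuttle was lower at each of its 3 components. Cpt1b, the muscle form of the outer membrane transferase and the regulated entry step, read 12.03 in Ct, 11.33 in DN and 10.95 in TS, or -0.69 and -1.08. Slc25a20, the carrier that exchanges acylcarnitine for carnitine, read 11.42 in Ct and exactly 10.37 in both other arrays, a difference of -1.05. Cpt2, the inner membrane transferase, read 11.19, 9.63 and 9.60 and was 2.93-fold lower in DN and 3.01-fold lower in TS. The tie of Slc25a20 does not show that the pools were alike, since 26.3% of the genes compared read exactly equal on DN and TS.

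Acyl-CoA dehydrogenases, each suited to a range of chain lengths, were lower in DN at all 4 genes. Acads, for short chains, read 10.09 in Ct, 8.54 in DN and 9.29 in TS, a difference of -1.55 in DN and -0.81 in TS. Acadm, for medium chains and the enzyme lost in a common inherited oxidation defect, read 12.41, 11.27 and 11.74, or -1.14 and -0.67. Acadl, for long chains, read 11.94, 11.26 and 11.50. It was past the limit in DN (-0.67) and not in TS (-0.44). Acadvl, the membrane-bound enzyme for very long chains, read 11.69, 10.89 and 10.83, with DN and TS close to each other (-0.81 and -0.86). Ct was the highest array for all 4 genes.

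Both subunits of the mitochondrial trifunctional protein were lower by similar amounts. Hadha, the alpha subunit with hydratase and dehydrogenase activity for long chains, read 12.39 in Ct, 11.72 in DN and 11.59 in TS, or -0.67 and -0.80, and its dimmer probe set gave -0.97 and -0.74. Hadhb, the beta subunit with thiolase activity, read 12.23, 11.41 and 11.52, or -0.82 and -0.71. The genes of these subunits lie on either side of the stretch printed above, and any link to their differences was not tested. The matrix enzymes of these steps differed in how far apart DN and TS lay. Hadh, the short-chain hydroxyacyl-CoA dehydrogenase, read 12.54, 10.53 and 11.32, which made it 4.01-fold lower in DN and 2.32-fold lower in TS. Echs1, the short-chain enoyl-CoA hydratase, read 11.45, 9.91 and 10.87, or -1.55 in DN and -0.59 in TS, the latter at the limit and short of it (-0.58) with 32 added on the linear scale. Acaa2, a thiolase of the matrix, read 12.14, 11.15 and 11.25, or -0.99 and -0.89, with DN and TS close together.

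Enzymes that prepare unsaturated chains or release acyl groups varied. Eci1, an isomerase for double bonds in the wrong position, read 11.12 in Ct, 9.86 in DN and 10.13 in TS, or -1.26 and -0.99. Decr1, the dienoyl-CoA reductase, read 10.29, 10.29 and 9.79, equal on Ct and DN, with -0.50 in TS, a difference that passed the limit under centring (-0.63). Acot2, a mitochondrial thioesterase that frees fatty acids from CoA, read 9.98, 9.04 and 8.30 and was 1.92-fold lower in DN and 3.21-fold lower in TS. Its close relative Acot1 read 3.39 on every array; probe sets of such relatives may share signal.

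Genes of the electron transfer flavoprotein were lower in both groups. Etfb, its beta subunit, read 11.35 in Ct, 9.78 in DN and 10.41 in TS, or -1.57 and -0.94. Etfa, the alpha subunit, read 12.25, 11.14 and 11.25, which is 2.16-fold lower in DN and 2.00-fold lower in TS. Etfdh, the membrane oxidoreductase that hands the electrons to ubiquinone, read 11.35, 10.63 and 10.63, a difference of -0.72 in each comparison. All 3 genes had Ct as the highest array.

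Ucp3, an inner membrane protein of muscle whose transcript is known to follow fatty acid supply, read 9.26 in Ct, 11.15 in DN and 9.44 in TS. It was 3.71-fold above Ct in DN, where 99.3% of the genes compared had a smaller difference, and 0.18 above Ct in TS. With Angptl4 and Plin2 it made up the 3 members higher in DN, whereas the 2 higher in TS were Angptl4 and Acsl6.

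Of the 3 ketone body genes among the members, the 2 past the filter were lower in both groups. Bdh1, the mitochondrial hydroxybutyrate dehydrogenase that opens the route, read 9.23 in Ct, 6.92 in DN and 7.30 in TS. It was the lowest of the 33 in DN, at -2.31 (4.97-fold), and lay at -1.94 (3.82-fold) in TS. Acat1, the mitochondrial thiolase that splits acetoacetyl-CoA, read 12.13, 10.92 and 11.45, or -1.20 and -0.67. Oxct1, which activates acetoacetate and is the committed step of ketone use, read 5.11 on all 3 arrays, equal to the last digit, and gave no measure of a difference.

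Monocarboxylate carriers, which move ketone bodies and lactate, were among 8 further ketone body genes compared, of which 3 were lower and 2 higher in DN and 2 were lower and 1 higher in TS. Over all genes, 5.53% were lower and 4.93% higher in DN, and 2.68% and 5.89% in TS. Slc16a1, the widespread carrier, read 11.01 in Ct, 9.70 in DN and 10.32 in TS, or -1.31 and -0.70. Slc16a7, a high-affinity carrier, read 7.96, 6.61 and 7.37, or -1.35 and -0.59. Slc16a3, the lactate exporter of fast fibres, read 8.91, 6.77 and 9.06, lower in DN (-2.14) and near Ct in TS (0.15). Slc16a6 read 8.40, 9.06 and 9.06 and was higher by 0.66 in both.

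Set directly against each other, DN and TS differed past the limit at 9 of these genes. For DN minus TS, 5 of the 33 were at least 1.5-fold lower and 4 at least 1.5-fold higher, where 5.93% and 3.2% of the genes compared passed. The median of the 33 was -0.0015, and over the 32 past the filter it was -0.0053, with the same counts. Lower in DN were Acsl6 (-1.91, or 3.76-fold), Echs1 (-0.96), Hadh (-0.79), Acads (-0.75) and Etfb (-0.63). Higher in DN were Plin2 (1.75), Ucp3 (1.71), Acot2 (0.74) and Angptl4 (0.72). Of the 5 uptake genes, 4 lay above 0, with a median of 0.47, and only Angptl4, the inhibitor of Lpl, passed the limit. For Cd36 the probe set used gave 0.51 and the dimmer probe set 0.0037. The counts depended on the scaling: with the arrays centred, 4 members were lower and 8 higher, beside 3.76% and 4.63% of the genes compared. Among all genes past the limit, the share of higher ones was 35.1% before centring and 55.2% after. Cd36, Fabp3, Lpl and Decr1 then passed the limit as higher (0.64, 0.60, 0.60 and 0.62) and Etfb no longer passed it (-0.51).

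**Figure D3:**
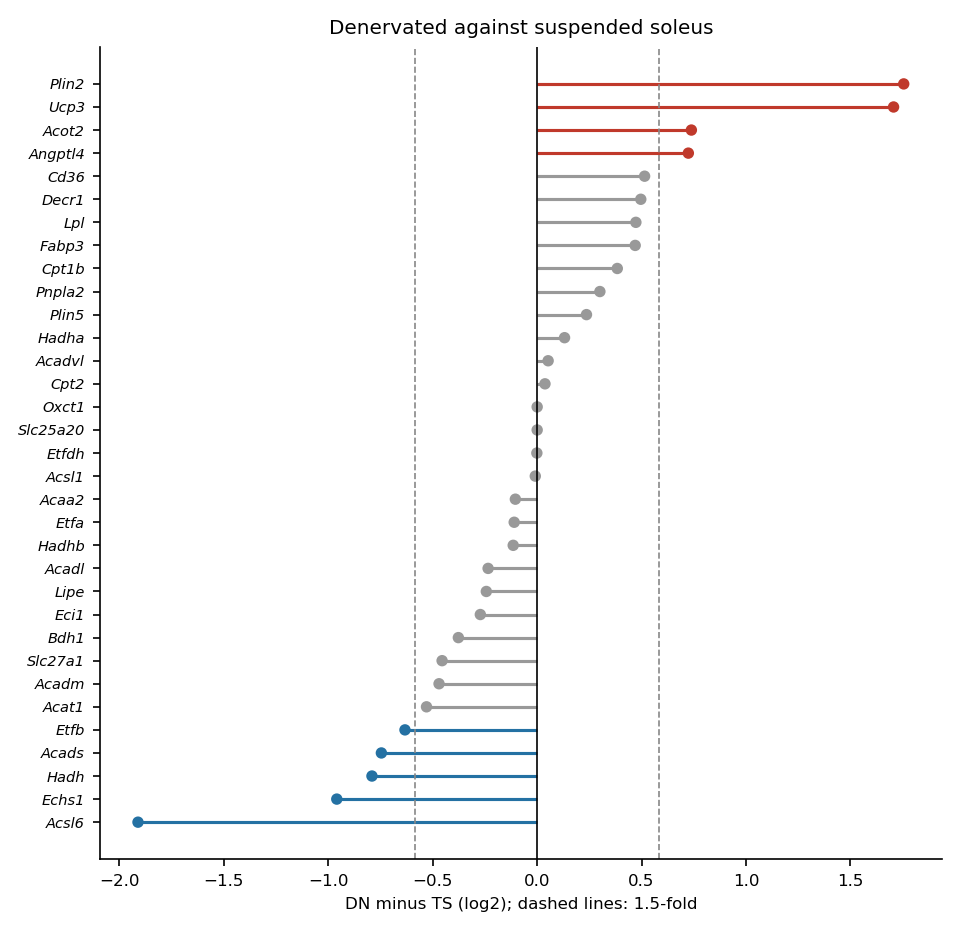
DN minus TS differences (log2) of the 33 genes in rank order, with dashed lines at 1.5-fold. Plin2 (1.75) and Ucp3 (1.71) stand apart at the upper end and Acsl6 (-1.91) at the lower end, while 24 genes lie inside the dashed lines.

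A further 28 genes of fatty acid oxidation were compared. In DN 8 were below the limit and 1 above it (median -0.33), and in TS 4 were below and 1 above (median -0.20). Among all genes compared, 5.53% lay below and 4.93% above in DN, and 2.68% and 5.89% in TS. Acot13, a thioesterase at mitochondria, read 9.84 in Ct, 8.48 in DN and 8.90 in TS, and Acsf2, a medium-chain synthetase, read 8.80, 7.65 and 7.93. Both were lower in both groups, at -1.37 and -0.95 for Acot13 and -1.15 and -0.87 for Acsf2. Ech1, an isomerase for dienoyl chains, read 11.46, 10.48 and 10.97, while Acot9, another thioesterase, read 9.36, 10.49 and 9.46 and was the gene higher in DN (1.13).

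Of 25 regulators of oxidative metabolism compared, 7 were at least 1.5-fold lower and 1 higher in DN, and 2 were lower and 3 higher in TS. The shares over all genes were 5.53% and 4.93% in DN, and 2.68% and 5.89% in TS. Perm1, a muscle regulator that acts with the estrogen-related receptors, read 10.39, 6.06 and 8.19 in Ct, DN and TS, which set both groups far below Ct (-4.32 and -2.20). Rxrg, a partner of many nuclear receptors, read 8.78, 7.36 and 8.33. Prkag3, the subunit of AMP-activated kinase found in fast fibres, was higher in both, at 7.55, 9.99 and 8.96. Pdk4, which spares glucose by blocking pyruvate dehydrogenase, read 11.26, 10.92 and 12.62, higher in TS (1.36) and not past the limit in DN (-0.34).

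Beside the other lists compared, the fatty acid and ketone body genes had the lowest medians, -0.90 in DN and -0.81 in TS over the 32 past the filter. Members and lists were written with earlier results of these data known, so that choice may have shaped the order of the medians. Over 15 citric acid cycle genes, 10 were at least 1.5-fold lower in DN and 3 in TS, with medians of -0.68 and -0.37 and 0 higher. Idh2, the mitochondrial isocitrate dehydrogenase that makes NADPH, read 13.02, 11.69 and 12.24 in Ct, DN and TS. Sdhc, a membrane anchor of succinate dehydrogenase, read 11.88, 10.71 and 11.33, and Sdhd, its partner, 11.74, 10.81 and 11.59. Idh3b, a subunit of the isocitrate dehydrogenase that makes NADH, read 12.11, 11.12 and 11.63. Over 23 glycolysis and glycogen genes, 5 were lower and 0 higher in DN, and 1 was lower and 3 higher in TS, with medians of -0.15 and 0.11. Beside both lists, 5.53% of all genes compared were lower and 4.93% higher in DN, and 2.68% and 5.89% in TS. Slc2a4, the insulin-responsive glucose transporter, read 11.73, 9.82 and 11.42, or -1.92 in DN and -0.31 in TS. Ldhb, the lactate dehydrogenase of oxidative tissue, read 12.44, 10.94 and 11.49, and Gys1, glycogen synthase of muscle, 11.00, 10.02 and 10.55. Hk2, the insulin-responsive hexokinase, read 10.17, 10.14 and 11.15 and was thus highest in TS. With 1 array per group the differences between these lists have no test.

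**Figure D4:**
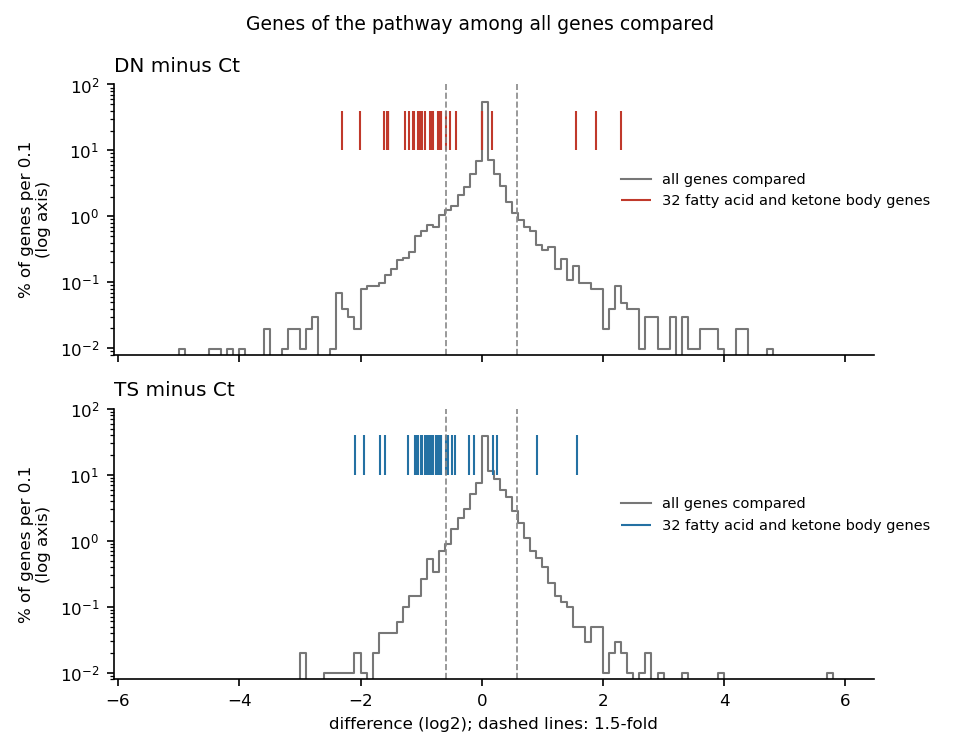
Share of the 10154 genes compared in each bin of 0.1 of the difference from Ct (line, log axis) and the 32 members past the filter (ticks), with dashed lines at 1.5-fold. In both panels most ticks lie left of the lower dashed line, which 5.53% of all genes pass in DN and 2.68% in TS.

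**Figure D5:**
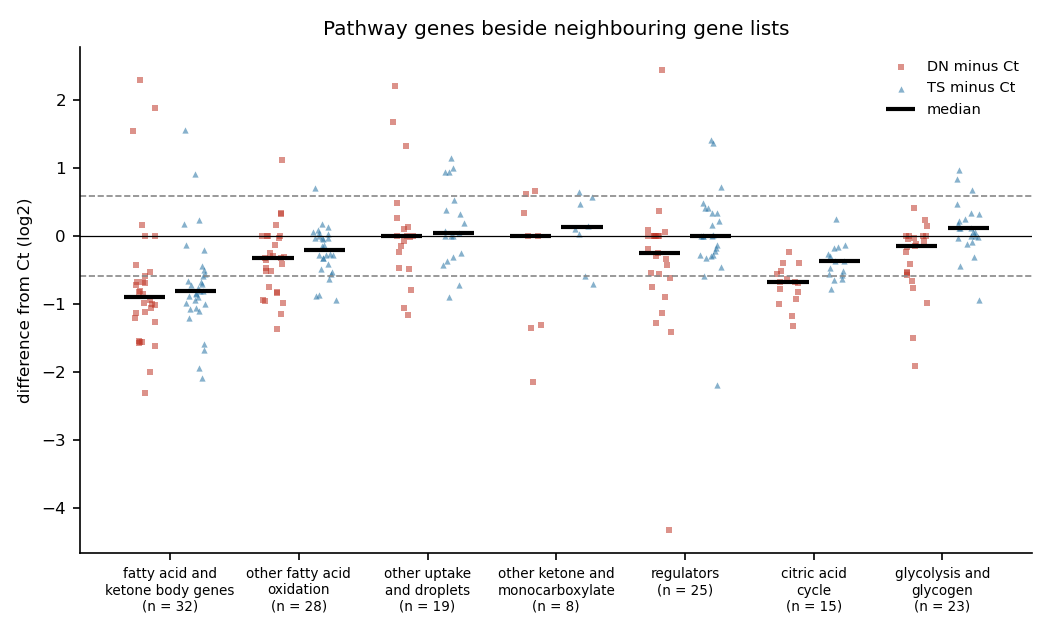
Differences from Ct (log2) of each gene in the lists, DN as squares and TS as triangles, with a bar at each median and the number of genes under each name. Points are spread sideways only for legibility; the fatty acid and ketone body genes past the filter have medians of -0.90 and -0.81, the citric acid cycle -0.68 and -0.37, and glycolysis and glycogen -0.15 and 0.11.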

How the data were processed

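Values were the authors' deposited log2 expression values, made by RMA on core exons in Affymetrix Expression Console, per the labels' description and the submitters' processing notes. RMA corrects background, normalizes across arrays and ends in a median polish over each probe set. The logarithm's base is unstated in the labels and was taken as 2, the usual output of RMA; values ran from 1.77 to 13.99. Software version, build and annotation: not given in the sources used here. The series text speaks of 2 arrays, and 3 samples were used here, grouped by their labels. Array medians were 6.32 to 6.35 over all probe sets.

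Of 29170 probe sets, the platform annotation gave 15310 a single symbol, 323 several and 13537 none; only the first were used, each gene by its brightest probe set. All 35 probe sets of the members kept their symbol in a table of GRCr8. Differences of log2 values were taken between arrays, with limits of 1.5-fold (0.585) and a filter at the 30th percentile of the mean. The probes of close relatives may share signal. Equal values on Ct and DN (42.9% of genes), Ct and TS (24.7%) or DN and TS (26.3%) give no measure of a difference.

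The members, lists and alternatives were chosen with earlier results of these data known. The text names all 33 members, the 4 genes with the largest difference from Ct on each further list and the first 3 markers of each cell type; Acot1, Marco, Fabp4 and the genes of the closing section were added with their values in view. The code was tested on simulated data and ran on Python 3.11.15, numpy 2.4.6, pandas 2.3.3, statsmodels 0.14.6 and matplotlib 3.10.9. The number of arrays limits the precision.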

Additional observations from a re-analysis of the deposited data

How the results depend on the processing

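Alternatives were centring of each array, quantile normalization, removal of a trend against mean level, an offset of 32 before the logarithm, dropping the filter or setting it at the 50th percentile, averaging probe sets or keeping single-set genes, leaving out genes of equal value, leaving out the 6 members that other cell types also use, limits of a 25% gap and of 2-fold, and means in place of medians. Counts were held to be kept within 1.5 times, and medians or single differences within the SD of a probe set's difference (0.12 in DN against Ct, 0.23 in TS against Ct and 0.22 in DN against TS, from 401 genes with a further probe set). At 2-fold, 14 members were lower in DN and 9 in TS, 1 was higher in TS, and 1 was lower and 2 higher in DN minus TS. At a 25% gap, 9 were lower and 9 higher in DN minus TS. The shares of all genes were not taken at 2-fold or at a 25% gap, so these counts have no background. Without the 6 members, 1 was higher in DN, 1 in TS and 2 in DN minus TS. With the filter at the 50th percentile 1 was higher in TS, since Angptl4 was then left out. Centring gave 8 higher in DN minus TS. The mean of the members in DN minus Ct was -0.71, where the median over the 32 past the filter was -0.90. No called median or member turned its sign under the alternatives run, and 474 of 480 single differences stayed within the SD. Part of that total was fixed beforehand and is no measure of robustness. Averaging probe sets cannot change the 31 members with 1 probe set. Centring moves every member by the same amount, 0.0073 in DN and 0.13 in TS against Ct, which is below the SD. No paired analysis was possible because each group has 1 array. No spread between rats was measured, and dim genes such as Angptl4 and Oxct1 in Ct are the least certain.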

Other observations

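Genes of triglyceride synthesis, chosen after their values were seen, differed in direction. Gpam, which adds the first acyl chain to glycerol phosphate in mitochondria, read 11.30 in Ct, 10.24 in DN and 10.59 in TS, or -1.06 and -0.72. Lpin1, a phosphatidate phosphatase, read 9.00, 8.21 and 9.38, below Ct in DN (-0.79) and above it in TS (0.39). Dgat2, which adds the last chain, read 8.27, 8.41 and 9.21, with 0.94 in TS, and is also among the adipocyte markers, whose mean was higher there; their part in it was not tested. Dgat1, which acts at the same step, read 8.73, 8.25 and 8.48. Slc27a4, a fatty acid transport protein, read 7.32, 7.42 and 8.31 and was 1.00 above Ct in TS.

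Enzymes that make and remove malonyl-CoA, the inhibitor of Cpt1b, were also read. Acacb, which makes it at the mitochondrial surface, read 9.62 in Ct, 9.96 in DN and 9.00 in TS, with differences of 0.33 and -0.63. Mlycd, which removes it, read 8.81, 7.87 and 8.26, or -0.94 and -0.55. Of the peroxisomal genes, Phyh, which starts the breakdown of branched chains, read 12.63, 11.68 and 11.75, or -0.96 and -0.89. Ehhadh, a bifunctional enzyme of peroxisomal beta-oxidation, read 6.94, 6.47 and 7.64, or -0.47 in DN and 0.70 in TS.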
